A study of Homo sapiens with 2 samples.

Results

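The hairpin genes whose miRNAs act in the inflammatory signalling of endothelial cells, hsa-mir-146a, hsa-mir-146b, hsa-mir-155, hsa-mir-21 and hsa-mir-31, were followed in hCMEC/D3 cells. The rule took every row of the deposited table whose precursor carries one of these 5 names, which gave 10 rows of 2363, a 5p and a 3p arm for each hairpin. The hCMEC/D3 line is an immortalised human brain microvascular endothelial line used in the laboratory to stand in for the blood-brain barrier. The study sequenced small RNA from 2 libraries of this line, replicate 2 and replicate 8, as 1 group. The labels used here give no cytokine, other treatment or genetic change for either library, and nothing says whether the replicates came from separate cultures. All values therefore describe 1 cell line in 1 labelled state, and the spread between the libraries may be technical.

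A miRNA is cut from a hairpin transcript as a duplex, and as a rule one arm is loaded into an Argonaute protein while the other is degraded. The loaded arm pairs with messenger RNAs mainly through its seed, bases 2 to 8 from the 5′ end. The miRNA miR-146a is induced by the transcription factor NF-kB. Both it and miR-146b repress IRAK1 and TRAF6, adaptors of the Toll-like and interleukin receptors, which for miR-146a closes a negative feedback loop. The miRNA miR-155 is induced by the same signals, represses the cytokine signalling inhibitor SOCS1 and has been linked to loss of barrier function in brain endothelium. The miRNA miR-21 represses PDCD4, an inhibitor of protein translation, and miR-31 is induced by tumour necrosis factor in endothelial cells and represses E-selectin, a receptor for rolling leukocytes.

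The 5p arms are shown because they carried nearly all counts of the 5 hairpins. They are written 5′ to 3′ with the seed in capitals, from RefSeq (GRCh38.p14), which gave sequences for 8 of the 10 arms.

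miR-21-5p: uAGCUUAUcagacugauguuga

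miR-146a-5p: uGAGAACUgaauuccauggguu

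miR-146b-5p: uGAGAACUgaauuccauaggcug

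miR-155-5p: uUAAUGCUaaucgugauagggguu

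miR-31-5p: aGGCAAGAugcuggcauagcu

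The arms of the miR-146 pair shared the seed, and the other 3 seeds were each different. Over the 22 positions that miR-146a-5p and miR-146b-5p have in common, 20 bases were identical. Counted from 1 at the 5′ end and with the base of miR-146a first, the differences were G18A and U21C, and miR-146b-5p is 1 base longer (23 against 22 bases). The hairpins of this pair are printed with both arms in capitals, because their 3p arms differed both in sequence and in counts.

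MIR146A: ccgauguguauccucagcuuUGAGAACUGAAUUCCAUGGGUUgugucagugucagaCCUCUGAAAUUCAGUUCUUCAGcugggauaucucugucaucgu

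MIR146B: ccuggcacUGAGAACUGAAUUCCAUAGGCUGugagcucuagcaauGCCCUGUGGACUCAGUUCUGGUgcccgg

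The 3p arms had the same base at 6 of 22 positions when aligned from their 5′ ends without gaps. Reads of the 3p arms can therefore be told apart far more easily than those of the 5p arms. How the authors assigned a read that matched both 5p arms is not given in the sources used here.

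The 5 genes lie on 5 chromosomes. Positions are exact matches of the RefSeq hairpins to GRCh37, the assembly that corresponds to the hg19 build in the submitters' processing notes, on each gene's own chromosome. MIR146A is at chr5:159912359-159912457 on the plus strand, where both spanning transcripts of the lncRNA MIR3142HG have an exon. MIR146B is at chr10:104196269-104196341 on the plus strand, and no other annotated gene overlaps it. For MIR155 the 5p arm was matched, at chr21:26946295-26946318 on the plus strand, and both transcripts of the lncRNA MIR155HG that span it have an exon there. MIR21 is at chr17:57918627-57918698 on the plus strand within exons of the protein-coding gene VMP1. MIR31 is at chr9:21512114-21512184 on the minus strand, and none of the 21 spanning transcripts of the lncRNA MIR31HG has an exon there, so it is intronic. The only other annotated hairpin within 50 kb of any of the 5 was MIR3142, 10.9 kb from MIR146A in the same host gene, and miR-3142 had 0 counts in both libraries.

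Depth was nearly equal. With 1 row kept per mature name, replicate 2 held 2721287 counts and replicate 8 held 2727675. CPM (counts scaled to a common library sum) were computed on these totals, on which 3 counts, the limit that a count of 0 allows, correspond to 1.10 CPM in either library. No member shared its counts with another entry through a second hairpin, so the choice among repeated rows touches only the denominator. The reads carry no molecular identifiers, so every interval covers counting error only. Ligation and size selection also act differently on different miRNAs, so a ratio between 2 miRNAs compares their read counts rather than their molecules.

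The endothelial label was checked against marker miRNAs. The endothelial miR-126-3p was the most abundant entry, at 112226 ± 4003 CPM (SD, n = 2). Leukocytes are a further known source of miR-155 and miR-146a. Of 4 leukocyte markers, miR-223-3p and miR-142-3p had 0 counts in both libraries, miR-142-5p had 0 and 2, and miR-150-5p had 622 in replicate 2 and 503 in replicate 8. Summed counts of the marker lists of other cell types, in replicate 2 and replicate 8, were 622 and 505 for leukocytes, 884 and 585 for red cells, 2271 and 1071 for mural cells, 222 and 112 for epithelium and 130 and 98 for neurons. The sums were not tested. Some markers of these other cell types had enough counts and passed the binomial test described below, all lower in replicate 8. They were 1 of 1 for leukocytes, 2 of 2 for red cells, 2 of 2 for mural cells, 3 of 4 for epithelium and 0 of 2 for neurons. Of the endothelial markers miR-126-3p passed, higher in replicate 8, and miR-126-5p did not. Over all names tested 10.8% passed higher and 23.5% lower in replicate 8. The part of other cell types in the member values was not tested.

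All 5 of the 5p arms and 3 of the 5 3p arms were detected, which means at least 10 counts in both libraries. Of all 2042 mature names, 543 (26.6%) were detected by that rule. The 10 arms together held 228807 counts in replicate 2 and 267355 in replicate 8, or 91048 ± 9854 CPM (SD, n = 2). Of these counts miR-21-5p made up 83.6% in replicate 2 and 86.1% in replicate 8. Without both arms of miR-21 the sum was 13568 CPM in replicate 2 and 13360 CPM in replicate 8. On library totals the members other than miR-21 were slightly lower in sum in replicate 8, while the sum over all 10 arms was higher. The gap for the members other than miR-21 was small, and that sum was not recomputed with other library sizes. No direction is therefore given for it.

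**Figure D1:**
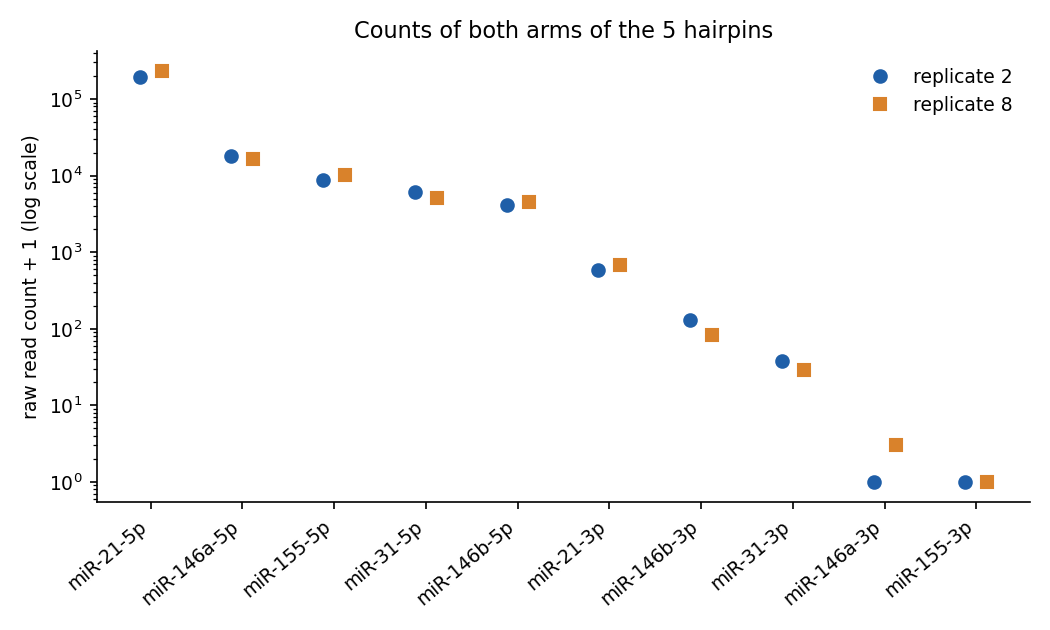
Raw read counts plus 1 (vertical log axis) of the 10 arms in replicate 2 (circles) and replicate 8 (squares), ordered by mean level. Every 5p arm lies above every 3p arm, from 230231 counts for miR-21-5p in replicate 8 down to 0 for miR-155-3p in both libraries.

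For miR-21-5p there were 191308 counts in replicate 2 and 230231 in replicate 8. This was 7.03% of all counts in replicate 2, with 7.06 as the upper bound of the 95% Wilson interval, and 8.44% in replicate 8, with 8.41 as the lower bound. It ranked 4 in replicate 2 and 3 in replicate 8. The entries next to it in mean level were miR-100-5p above, with 222011 and 251421 counts, and miR-99b-5p below, with 202857 and 167387. Thus miR-99b-5p stood above miR-21-5p in replicate 2 and below it in replicate 8.

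The feedback regulator miR-146a-5p was the second member in order, with 17841 counts in replicate 2 and 16658 in replicate 8, or 6332 ± 318 CPM (SD, n = 2). It ranked 30 in each library. Counts of miR-21-5p were 10.7 times those of miR-146a-5p in replicate 2 and 13.8 times in replicate 8. Its neighbours were miR-27a-3p (6859 ± 1564 CPM) and miR-181b-5p (5921 ± 454 CPM), and miR-27a-3p was above it in replicate 2 and below it in replicate 8.

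Of the pro-inflammatory miR-155-5p, replicate 2 gave 8787 counts and replicate 8 gave 10063, or 3459 ± 325 CPM (SD, n = 2). It ranked 39 and 37. Its counts could not be separated in order from those of miR-140-3p, with 9479 and 9349, since miR-140-3p was higher in replicate 2 and miR-155-5p in replicate 8. The neighbour above, miR-106b-3p, had 11725 and 11374 counts and was higher in both.

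For miR-31-5p, the E-selectin repressor, 6023 counts were found in replicate 2 and 5148 in replicate 8, or 2050.3 ± 230.5 CPM (SD, n = 2). It ranked 56 and 60, below miR-29a-3p with 6509 and 5813 counts. The next entry, miR-30c-5p, had 5559 and 5313 counts and changed places with miR-31-5p between the libraries.

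The lowest 5p arm was miR-146b-5p, with 4104 counts in replicate 2 and 4461 in replicate 8, or 1572 ± 90.0 CPM (SD, n = 2). It ranked 72 and 63. Of its neighbours, miR-4521 had 5371 and 3386 counts and miR-139-5p had 3985 and 4429. The latter was lower than miR-146b-5p in each library, by less than either differed between the libraries.

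The order of the 5p arms was the same in both libraries: miR-21, miR-146a, miR-155, miR-31 and miR-146b. At each step the lower library of the upper miRNA was above the higher library of the lower one. The closest step was from miR-31-5p to miR-146b-5p, with 1887 CPM as the lowest value of the former and 1635 CPM as the highest of the latter. The ratio of their counts was 1.47 in replicate 2 and 1.15 in replicate 8.

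**Figure D2:**
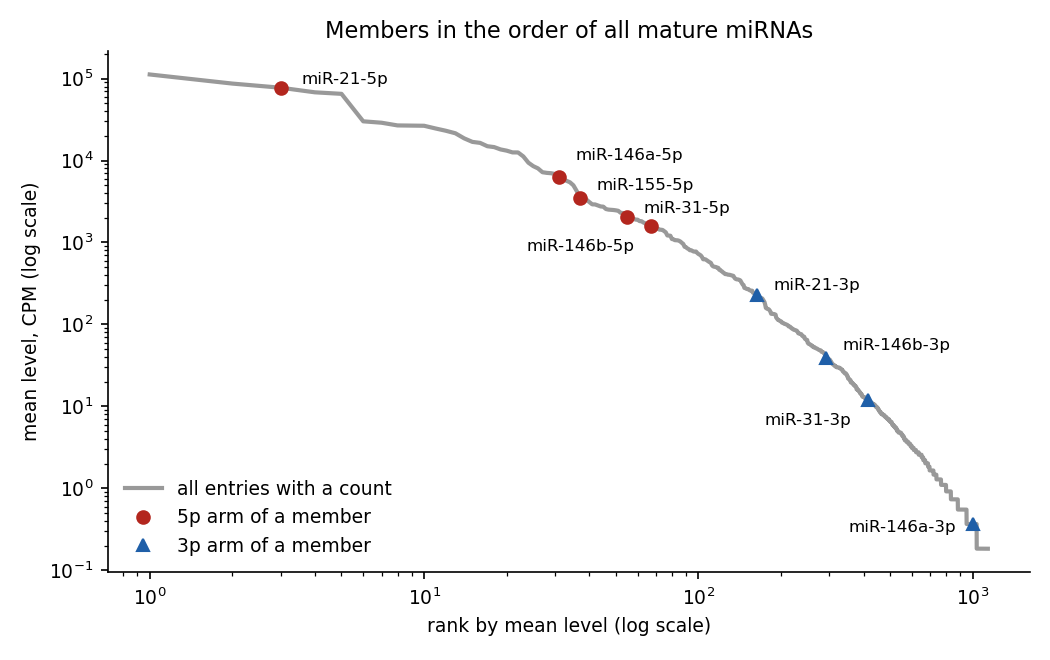
Mean level in CPM (vertical log axis) against rank (horizontal log axis) of all mature miRNAs with a count (grey line), with the 5p arms (circles) and 3p arms (triangles) of the 5 hairpins. The 5p arms other than miR-21-5p lie between 6332 and 1572 CPM, and miR-21-3p is the highest 3p arm at 230.8 CPM.

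The miR-146 pair presents a single seed to its targets, so its arms were also summed. The sum of miR-146a-5p and miR-146b-5p was 8064 CPM in replicate 2 and 7742 CPM in replicate 8. Of this, miR-146a-5p held 81.3% in replicate 2, with a 95% Wilson interval of 80.8 to 81.8. In replicate 8 it held 78.9%, with an interval of 78.3 to 79.4. The ratio of miR-146a-5p to miR-146b-5p was 4.35 in replicate 2 and 3.73 in replicate 8, a mean of 4.04 ± 0.43 (SD, n = 2). The intervals did not overlap, so the balance within the pair differed between the libraries by more than counting error. The seed of miR-21-5p recurs in miR-590-5p, which had 1 count in replicate 2 and 0 in replicate 8. The miR-146 seed also occurs in miR-7153-5p of RefSeq, which is not among the deposited names and so had no counts to add. No other RefSeq miRNA shared the seed of miR-155-5p or of miR-31-5p. Of the 2042 mature names, 1716 were found in RefSeq under the same name, so the search for shared seeds may be incomplete. The sequence of miR-590-5p is printed for comparison with miR-21-5p above.

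miR-590-5p: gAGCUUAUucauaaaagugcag

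Arm use was one-sided in all 5 hairpins, and always towards the 5p arm. Of the 202 hairpins with both arms listed and 50 or more counts per library when the arms are added, 115 (56.9%) had more 5p counts. Some of the 202 share a mature arm and its reads with another hairpin. The median share of the rarer arm over these hairpins was 2.98%, taken as the mean of both libraries, and on that mean all 5 members were below it. In replicate 2 alone hsa-mir-146b was above it, at 3.09%.

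For hsa-mir-155 the 3p arm took 0 of 8787 counts in replicate 2, which allows a share of up to 0.0341%, and 0 of 10063 in replicate 8, which allows up to 0.0298%. It was 1 of 23 hairpins with no count of the rarer arm in either library. For hsa-mir-146a the 3p arm had 0 of 17841 counts in replicate 2, which allows up to 0.0168%, and 2 of 16660 in replicate 8, a share of 0.0120% (95% Wilson interval 0.0033 to 0.0438). The passenger strands of these NF-kB-induced miRNAs were thus at or under the detection limit, although their 5p arms ranked among the first 40 entries.

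The 3p arm of hsa-mir-21 had 576 counts in replicate 2 and 682 in replicate 8, or 0.300% (0.277 to 0.326) and 0.295% (0.274 to 0.318) of the hairpin. In absolute terms miR-21-3p was at 230.8 ± 27.1 CPM (SD, n = 2), higher than 70.0% of the detected miRNAs. The 3p arm of hsa-mir-31 had 37 and 28 counts, or 0.611% (0.443 to 0.840) and 0.541% (0.375 to 0.781). The shares of these hairpins differed between the libraries by less than their intervals.

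The 3p arm of hsa-mir-146b had 131 counts in replicate 2 and 82 in replicate 8. Its share fell from 3.09% (95% Wilson interval 2.61 to 3.66) to 1.80% (1.46 to 2.23), so that 31.3 reads of the 5p arm stood against 1 of the 3p arm in replicate 2 and 54.4 in replicate 8. Arm counts of every hairpin were compared between the libraries by a two-sided Fisher exact test with Benjamini-Hochberg adjustment over the 202 hairpins. This test compares the reads of 2 libraries, not conditions. Of all hairpins 19.8% passed the threshold of 0.05, and of the members hsa-mir-146b alone (adjusted p = 0.0011, Fisher exact test). With 1 of 5 members passing, the share was near that over all hairpins, so the count says little about the members. The adjusted p from this exact test was 0.51 for hsa-mir-146a, 0.98 for hsa-mir-31 and 1 for both hsa-mir-21 and hsa-mir-155. Between hairpins of the pair that share a seed, the 3p share of hsa-mir-146b was above what the counts allow for hsa-mir-146a in both libraries (0.0168% from 3 counts in replicate 2, and 0.0438% as the upper Wilson bound in replicate 8).

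**Figure D3:**
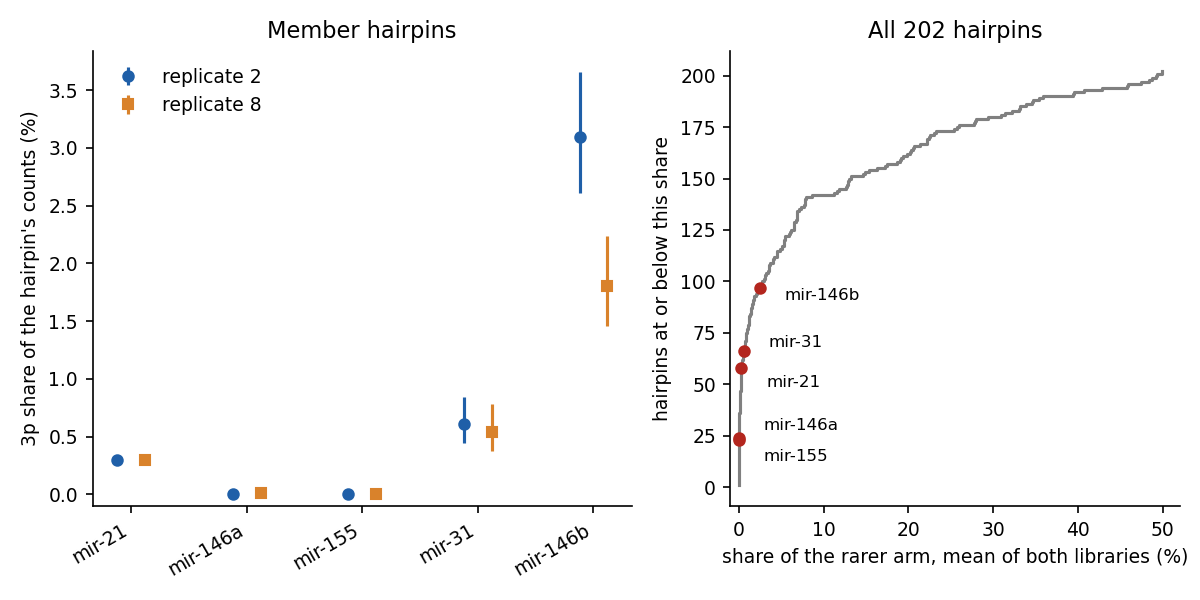
Left, share of the 3p arm in the counts of each member hairpin (%), with 95% Wilson intervals, in replicate 2 (circles) and replicate 8 (squares). Right, number of the 202 hairpins at or below each share of the rarer arm (%), with the members as points, where hsa-mir-146b (2.45%) stands apart from the other members, all under 1%.

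The libraries were then compared arm by arm. A two-sided exact binomial test set each count in replicate 8 against the count expected from the library totals. Its p-values were adjusted by Benjamini-Hochberg over all 695 mature names with at least 10 summed counts. Log2 ratios are replicate 8 over replicate 2 after adding 0.5 counts. Of all names tested 34.2% passed the threshold of 0.05, 10.8% higher and 23.5% lower in replicate 8. Since deep counts make small differences pass, the share was 76.4% among the 174 names with at least 1000 summed counts. Of the 8 member arms tested 7 passed, 4 higher and 3 lower, and 6 of these 7 had at least 1000 summed counts. At that depth passing was the common outcome, so the count says little about the members. The median log2 ratio of the 8 arms was 0.01, against -0.11 over all names tested.

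Both arms of miR-21 were higher in replicate 8, and by nearly the same amount. The log2 ratio was 0.26 for miR-21-5p (95% exact interval 0.26 to 0.27), with an adjusted p too small to be represented in the arithmetic used. For miR-21-3p it was 0.24 (exact interval 0.08 to 0.40, binomial adjusted p = 0.012). Of the 174 abundant names 57 differed by at least as much as miR-21-5p.

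Higher counts in replicate 8 were also found for miR-155-5p, whose log2 ratio was 0.19 (95% exact interval 0.15 to 0.23, binomial adjusted p = 1.0e-18). The same held for miR-146b-5p, at 0.12 (exact interval 0.06 to 0.18, binomial adjusted p = 9.0e-04). Among the abundant names 80 differed by at least as much as miR-155-5p and 117 by at least as much as miR-146b-5p. On library totals these are small differences, near or below the median absolute log2 ratio of 0.17 of the abundant names.

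Lower counts in replicate 8 were found for miR-31-5p, at a log2 ratio of -0.23 (exact interval -0.28 to -0.18, binomial adjusted p = 5.5e-16). For miR-146a-5p the log2 ratio was -0.10 (exact interval -0.13 to -0.07, binomial adjusted p = 4.3e-10). This call rested on the scaling. With library sizes scaled by TMM (trimmed mean of M values), which raises every log2 ratio by 0.10, it was -0.004 with an exact binomial adjusted p of 0.91. No direction is therefore given for miR-146a-5p. On the same scale miR-31-5p stayed lower, at -0.13 (exact binomial adjusted p = 1.1e-05). The arms that were higher stayed so, with larger log2 ratios. These were 0.36 for miR-21-5p, 0.34 for miR-21-3p, 0.29 for miR-155-5p and 0.22 for miR-146b-5p.

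The largest member difference was that of miR-146b-3p, from 131 to 82 counts, where the log2 ratio was -0.68 (exact interval -1.10 to -0.27, binomial adjusted p = 0.0032). Its own 5p arm went the other way. For miR-31-3p the ratio was -0.40 (-1.17 to 0.34) with an exact binomial adjusted p of 0.44, so at 37 and 28 counts a difference was not detectable. The remaining arms, miR-146a-3p and miR-155-3p, had too few counts to test. With TMM sizes 6 of the 8 arms passed, 4 higher and 2 lower, against 16.0% higher and 16.7% lower over all names tested.

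**Figure D4:**
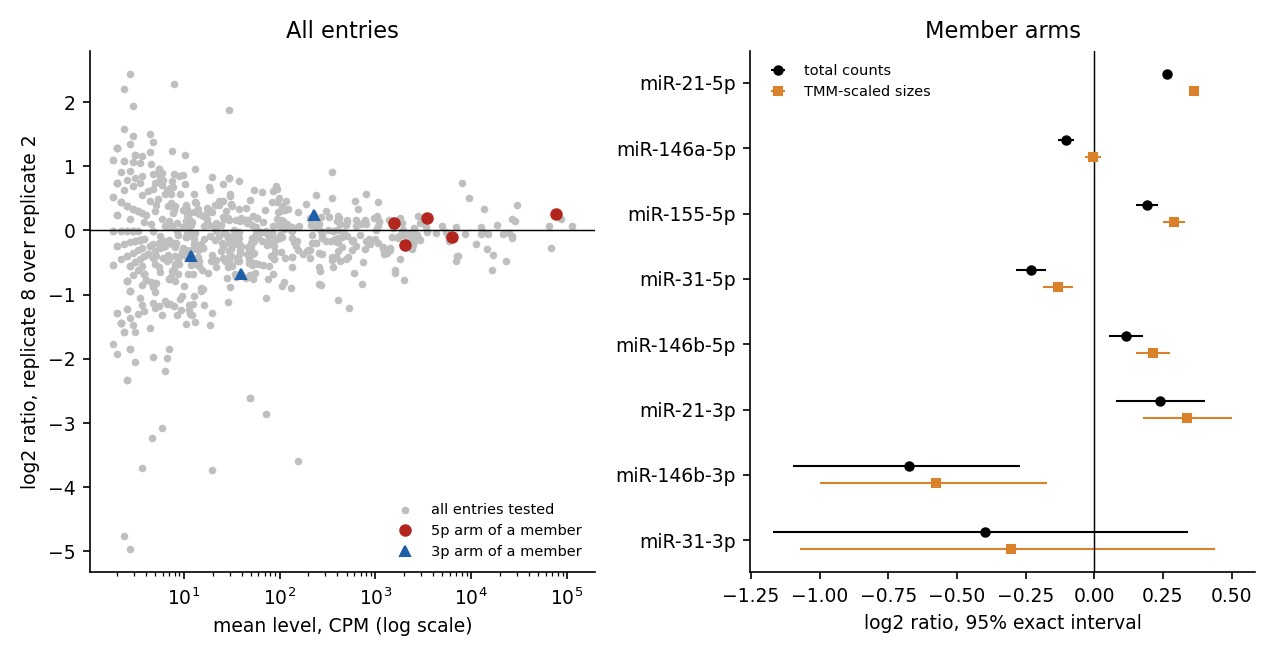
Left, log2 ratio of replicate 8 over replicate 2 against mean level in CPM (log axis) for all 695 names tested (grey) and the member arms. Right, log2 ratios of the 8 member arms with 95% exact intervals on total counts (circles) and TMM-scaled sizes (squares), where miR-146a-5p moves from -0.10 to zero and the other arms keep their side.

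Other miRNAs that have been reported to act on NF-kB, cytokine or adhesion molecule genes were read beside the 5 hairpins. Of 26 listed, 21 were detected, beside 26.6% of all mature names. All 26 summed to 216083 ± 3526 CPM (SD, n = 2), of which miR-126-3p, a repressor of the adhesion molecule VCAM1, contributed 112226 CPM. After it came miR-181a-5p at 21508 ± 574 CPM, miR-125a-5p at 16416 ± 4918 CPM and miR-92a-3p at 14950 ± 462 CPM. The importin repressor miR-181b-5p, which limits nuclear entry of NF-kB, was at 5921 ± 454 CPM, next to miR-146a-5p. The ICAM1 repressor miR-17-3p, which is induced by tumour necrosis factor together with miR-31, had 134 and 143 counts, or 50.8 ± 2.25 CPM, far below miR-31-5p.

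At the low end of this list, miR-147a and miR-223-3p had 0 counts in both libraries, miR-124-3p had 3 and 1, and miR-147b had 44 and 55. Of the 23 listed miRNAs with enough counts to test, 5 were higher and 9 lower in replicate 8 by the adjusted exact binomial test, beside 10.8% higher and 23.5% lower over all names and 76.4% passing among abundant names. With TMM sizes 9 were higher and 6 lower, beside 16.0% and 16.7% over all names. Nothing particular to the list is read from these counts. The median log2 ratio of the list was -0.05. The widest gaps were those of miR-199a-5p, with 99 and 7 counts, and miR-199a-3p, with 227 and 37, whose reads cannot be separated from those of miR-199b-3p. Both exceed the difference of every member arm tested.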

How the data were processed

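Small RNA from 2 hCMEC/D3 libraries was ligated to adaptors, amplified and size-selected, per the labels' protocols. The submitters' processing notes name CASAVA 1.9, FastQC, cutadapt, Bowtie 0.12.7 and hg19. The counting rule and the miRNA release are not given in the sources used here. The authors deposited a table of raw read counts per mature miRNA and precursor, and the same values as RPM, reads scaled to a common sum. The repeated rows of names with several hairpins (321 rows, 14.1% and 14.6% of the counts) were dropped by keeping the row with the highest mean count. This held for levels and binomial tests. The arm comparison kept every hairpin, so reads of an arm listed under several hairpins entered it more than once. CPM, Wilson intervals, exact binomial tests over all names and Fisher exact tests over all hairpins were computed in Python 3.11.15 with scipy 1.17.1. TMM sizes came from edgeR 4.0.16 and size factors from DESeq2 1.42.0, with no test from either, because there was 1 group. Tests were run on simulated counts that held counting error only. That check cannot show how the tests behave when libraries also vary in other ways. Named were all member arms, their neighbours in mean level, entries with the same seed, hairpins within 50 kb, and fixed lists of inflammation and cell type marker miRNAs. The members and lists were chosen with earlier results of these data known. Alternatives covered scaling, filters, added counts, repeated rows, the seed and each library left out.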

Additional observations from a re-analysis of the deposited data

How the results depend on the processing

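Over 33 results, 81 values were recomputed besides those that leave out a library. Of these, 52 kept their direction and call or moved by no more than 1 SD. Counts of members within 1.5 times the reported count made up 9. Another 18 moved further, 2 lost their call and none reversed. The 52 include ratios with 0 or 5 counts added, whose adjusted p could not change, since added counts do not enter the test. The arm shares themselves do not depend on the count filter. With at least 100 counts in both libraries 6 arms were detected in place of 8. The summed level of the member arms was 77958 CPM with all rows in the denominator and 77675 on the deposited RPM scale, both by construction of the denominator. It was 14843 CPM with miR-21-5p taken out of both the sum and the total, an alternative chosen after seeing the data. Leaving out each library gave 84080 to 98016 CPM for the sum and 3.73 to 4.35 for the ratio of miR-146a-5p to miR-146b-5p, which with 2 libraries are the single values and show nothing about stability. The levels of single 5p arms shifted in the same way with the denominator. The lost calls were both for miR-146a-5p, under TMM scaling and under DESeq2 size factors (exact binomial adjusted p of 0.91 and 1). The count of member arms that differed was 6 with either scaling and 7 under the other alternatives tried for it. With at least 500 or at least 10 counts over both arms, hsa-mir-146b was again the only member hairpin whose arm share passed. Counts under about 100, as for miR-31-3p, limit what could be seen.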

Other observations

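Sequence features of the 5p arms were read from RefSeq. The 5p arms of miR-21, miR-146a, miR-146b and miR-155 begin with U and that of miR-31 with A, while the 3p arms with a sequence begin with C (miR-146a, miR-155) or G (miR-146b). Over the 176 hairpins with sequences for both arms, 58.5% of the more abundant arms begin with U and 22.7% with A, against 22.2% and 29.5% of the rarer arms. The length of the member 5p arms ran from 21 bases for miR-31-5p to 24 for miR-155-5p.

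With the seed read as bases 2 to 7, the miR-146 group gains miR-589-5p, with 2819 counts in replicate 2 and 2566 in replicate 8, or 988.3 CPM. The sum of the group is then 8892 ± 295 CPM (SD, n = 2) in place of 7903 ± 227 CPM, and miR-146b-5p holds 16.6% and 18.8% of it. The sequence of miR-589-5p departs from that of miR-146a-5p from base 8 on, the last base in capitals.

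miR-589-5p: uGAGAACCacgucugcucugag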
